A study of Mus musculus with 9 samples.

Results

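The genes described here are 34 genes that mark vascular endothelium in general, taken by symbol from a written list. Of the 34, 33 were among the 16165 genes of the deposited table and Exoc3l2 was not. All 33 passed the filter on low values and were among the 13849 genes tested. The list was drawn up with earlier results of these data known, so its counts describe these genes and are read beside the same counts over all tested genes.

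Endothelial cells line blood and lymph vessels, and in the lung they form the capillary bed across which gas is exchanged. Their identity is held by transcription factors of the ETS family (Erg, Fli1, Ets1) with Tal1, Lyl1 and Gata2. These factors act on genes for cell junctions (Cdh5, Cldn5, Esam), for receptors of blood-borne signals (S1pr1, the Ramp2 and Calcrl pair) and for control of clotting at the vessel wall (Thbd, Procr, Vwf).

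Total lung RNA was sequenced from 9 mice in 3 groups of 3, with 1 library per mouse. The first group was TGFα mice on doxycycline (Dox) for 6 weeks that were treated with vehicle, and the second was TGFα mice on Dox for 6 weeks that were treated with pirfenidone, an antifibrotic drug. The third group was control mice treated with vehicle. In the sample descriptions the controls are named ST and Normal, and both TGFα groups BT and Dox. The labels do not spell out ST or BT. TGFα, transforming growth factor alpha, activates the EGF receptor, and the treatment with vehicle or drug covered the last 3 weeks. Dox is absent from the labels of the control mice, while the series description can be read as giving it to them too, so effects of the transgene and of Dox cannot be told apart. No control mice received pirfenidone, and the sources used here give no strain or age and do not say in which cells the transgene is active. Since the labels do not say whether mice shared a litter or cage, p-values measure the spread between these 9 libraries.

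The libraries held 11428709 to 18874158 reads, and the member with the fewest reads, Lyl1, had at least 133 in each. Depth therefore did not limit the detection of any of the 33 members with values. Why Exoc3l2 was absent is not known. A principal component analysis placed TGFα vehicle replicate 1 and TGFα pirfenidone replicate 3 between the other libraries of the TGFα groups on the second component, which held 25.4% of the variance. Acta1, the actin of skeletal muscle, had 407, 158 and 0.540 RPKM in TGFα vehicle lungs, 128, 574 and 0.946 RPKM in TGFα pirfenidone lungs and 0.606, 0.740 and 0.451 RPKM in control lungs. RPKM scale the reads of a gene by its length in kilobases and by the depth of the library, so levels can be compared between genes.

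In TGFα lungs on vehicle, 27 of the 33 endothelial genes were lower than in control lungs, 1 (Cd34) was higher and 5 did not pass the threshold of 0.05 on the adjusted p. Over all tested genes, 11.2% were called lower and 12.0% higher in this comparison. The median log2 fold change of the 33 genes was -0.96, a fall of 1.94-fold, beside a median of 0.04 over all tested genes. The quartiles of the members were -1.11 and -0.81, with an SD of 0.52 between members and a range from -2.17 (Tmem100) to 0.67 (Cd34). Fold changes are those of limma on log2(RPKM + 1), with SE, and levels are mean ± SD of 3 mice. The libraries of both groups did not overlap in 25 members that were lower and in 1 that was higher, beside 18.8% and 25.4% of all tested genes. In whole lung RNA, fewer endothelial cells, less RNA per endothelial cell and a larger share of RNA from other cells cannot be told apart.

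Of the 28 calls, 19 held under each of 17 other settings of the fit, and 9 did not. The 9 were Clec14a, Erg, Thbd, Ptprb, She, Ldb2, Gata2, Stab1 and Ets1. With 1 library left out, 18 to 29 members were called lower. The count was 19 without control replicate 1, 19 without control replicate 2, 19 without TGFα vehicle replicate 2 and 18 without TGFα vehicle replicate 3. Calls lower over all tested genes went from 1557 to 795, 765, 678 and 678 in the same settings, in that order. Cd34 was the only member called higher in each of those settings.

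**Figure D1:**
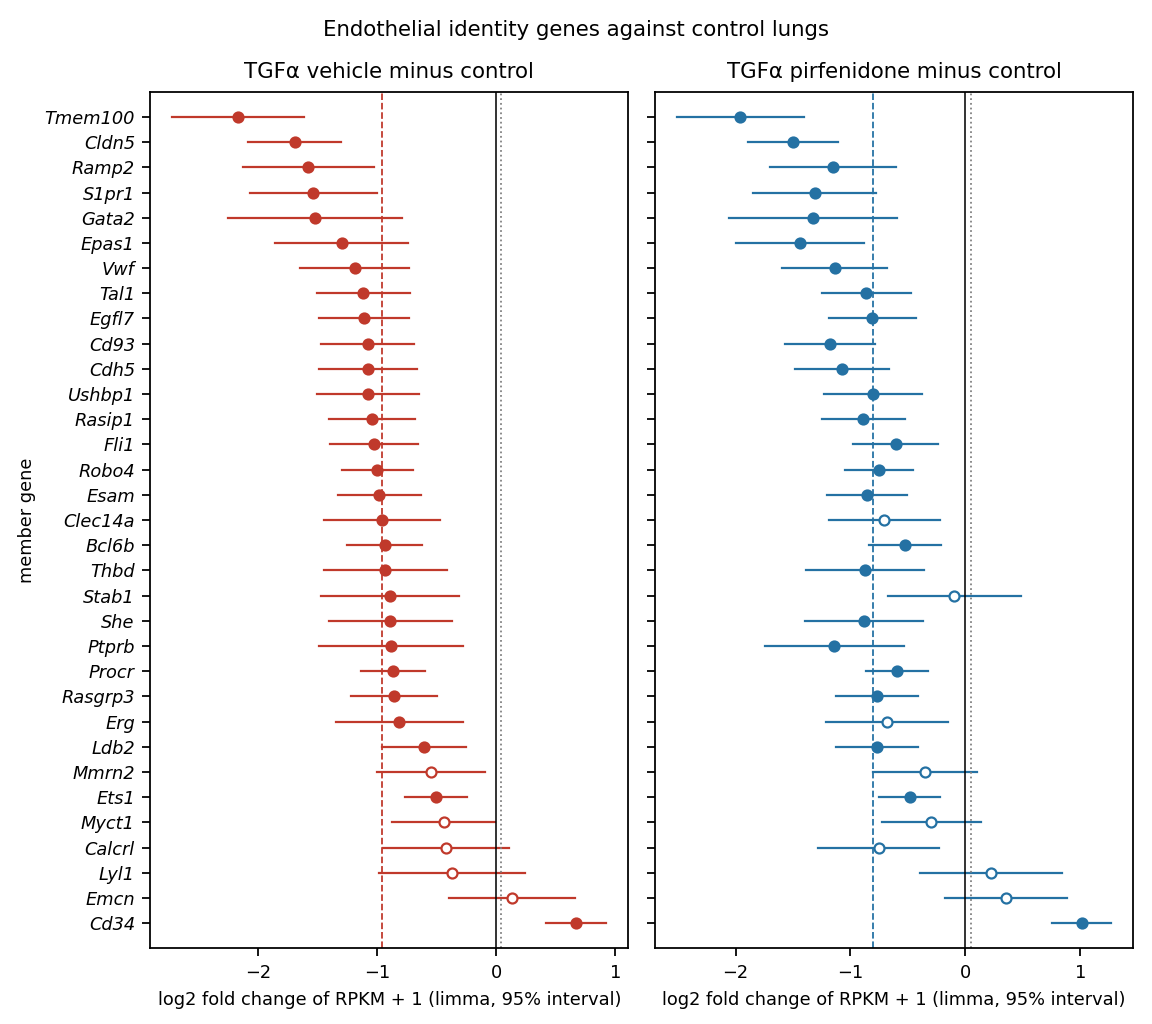
Log2 fold change of RPKM + 1 for each of the 33 endothelial genes in TGFα vehicle lungs minus control lungs (left) and in TGFα pirfenidone lungs minus control lungs (right), with unadjusted 95% intervals from limma. Filled points passed the adjusted threshold, dashed lines mark the median of the members (-0.96 left, -0.81 right) and dotted lines the median of all tested genes. Both panels share the 3 control libraries, and Tmem100 lies lowest and Cd34 highest in both.

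Among the 10 genes for junctions and surface glycoproteins, 7 were lower in TGFα vehicle lungs than in control lungs, 1 was higher and 2 did not pass, with a median log2 fold change of -0.97. Cldn5, the tight junction claudin of endothelium, had 157, 118 and 105 RPKM in TGFα vehicle lungs, against 449.6, 438 and 338 RPKM in control lungs. All 3 TGFα vehicle libraries lay below all 3 control libraries, and the log2 fold change was -1.69 ± 0.17 (limma adjusted p = 0.00123). Robo4, a roundabout family receptor that steadies the vessel barrier, had 11.3, 9.60 and 10.3 RPKM in TGFα vehicle lungs, against 24.8, 23.8 and 17.3 RPKM in control lungs. The groups again did not overlap, with a log2 fold change of -0.998 ± 0.13 (limma adjusted p = 0.00262). Cdh5, which encodes VE-cadherin of the adherens junction, averaged 119 ± 20.4 RPKM in TGFα vehicle lungs and 255 ± 60.3 RPKM in control lungs, a log2 fold change of -1.08 ± 0.18 (limma adjusted p = 0.00553). Esam, a junctional adhesion molecule also found on platelets, and Cd93, a lectin-domain glycoprotein also found on myeloid cells, fell by similar amounts, with log2 fold changes of -0.98 and -1.08.

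Clec14a, a relative of Cd93, and Ptprb, the phosphatase that acts on VE-cadherin and on the receptor Tie2, were also called lower, at log2 fold changes of -0.96 ± 0.21 and -0.88 ± 0.26. Both calls were lost when any 1 of several libraries was left out. The limma adjusted p of Clec14a was 0.0149 with all libraries, 0.0574 without control replicate 1, 0.0590 without control replicate 2, 0.0618 without TGFα vehicle replicate 2 and 0.0616 without TGFα vehicle replicate 3. That of Ptprb was 0.0430 with all libraries and 0.135, 0.132, 0.151 and 0.141 without the same 4 libraries. It was also 0.0583 without TGFα pirfenidone replicate 1 and 0.0599 without TGFα pirfenidone replicate 2, which share the estimate of the spread. With only the TGFα vehicle and control libraries fitted, 25 members were called lower, and the calls of Ptprb and Erg were lost.

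The other surface genes did not follow these. Cd34, a sialomucin of endothelium that progenitor cells and some fibroblasts also carry, had 70.96, 75.4 and 83.5 RPKM in TGFα vehicle lungs, against 48.3, 51.7 and 43.4 RPKM in control lungs. Here every TGFα vehicle library was above every control library, and the log2 fold change was 0.67 ± 0.11 (limma adjusted p = 0.00547). Cd34 shares 148 exon bases in GENCODE vM21 with the antisense gene Gm16897, which had at most 1.55 RPKM in any library. Col1a2, a fibroblast collagen gene, was higher in the same comparison, at 272 ± 62.1 RPKM in TGFα vehicle lungs and 135 ± 7.12 RPKM in control lungs (limma adjusted p = 0.0106). It was the 1 gene called, in either direction, among 8 fibroblast and pericyte markers, beside 11.2% of all tested genes called lower and 12.0% higher. Of these 8, 4 had log2 fold changes below 0 and 4 above 0, with a median of -0.07. The summed level of those 8 markers was 925 to 1040 RPKM in TGFα vehicle lungs and 666 to 695 RPKM in control lungs, and its part in the level of Cd34 was not tested.

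Emcn, endomucin, a surface sialoglycoprotein mainly of capillaries and veins, had 72.99, 42.1 and 42.6 RPKM in TGFα vehicle lungs, against 49.4, 51.8 and 38.6 RPKM in control lungs. The groups overlapped, with TGFα vehicle replicate 1 highest, and the log2 fold change was 0.13 ± 0.23 with an interval of -0.40 to 0.66 (limma adjusted p = 0.711). Without TGFα vehicle replicate 1 it was -0.12. Mmrn2, a matrix glycoprotein that binds Cd93 and Clec14a, had 15.1, 8.42 and 8.55 RPKM in TGFα vehicle lungs, against 16.3, 14.6 and 15.8 RPKM in control lungs. Replicate 1 of the TGFα vehicle group reached into the control range and the other 2 libraries lay below it. The log2 fold change was -0.55 ± 0.20 (limma adjusted p = 0.0769), and without that library it was -0.80 (limma adjusted p = 0.00341).

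**Figure D2:**
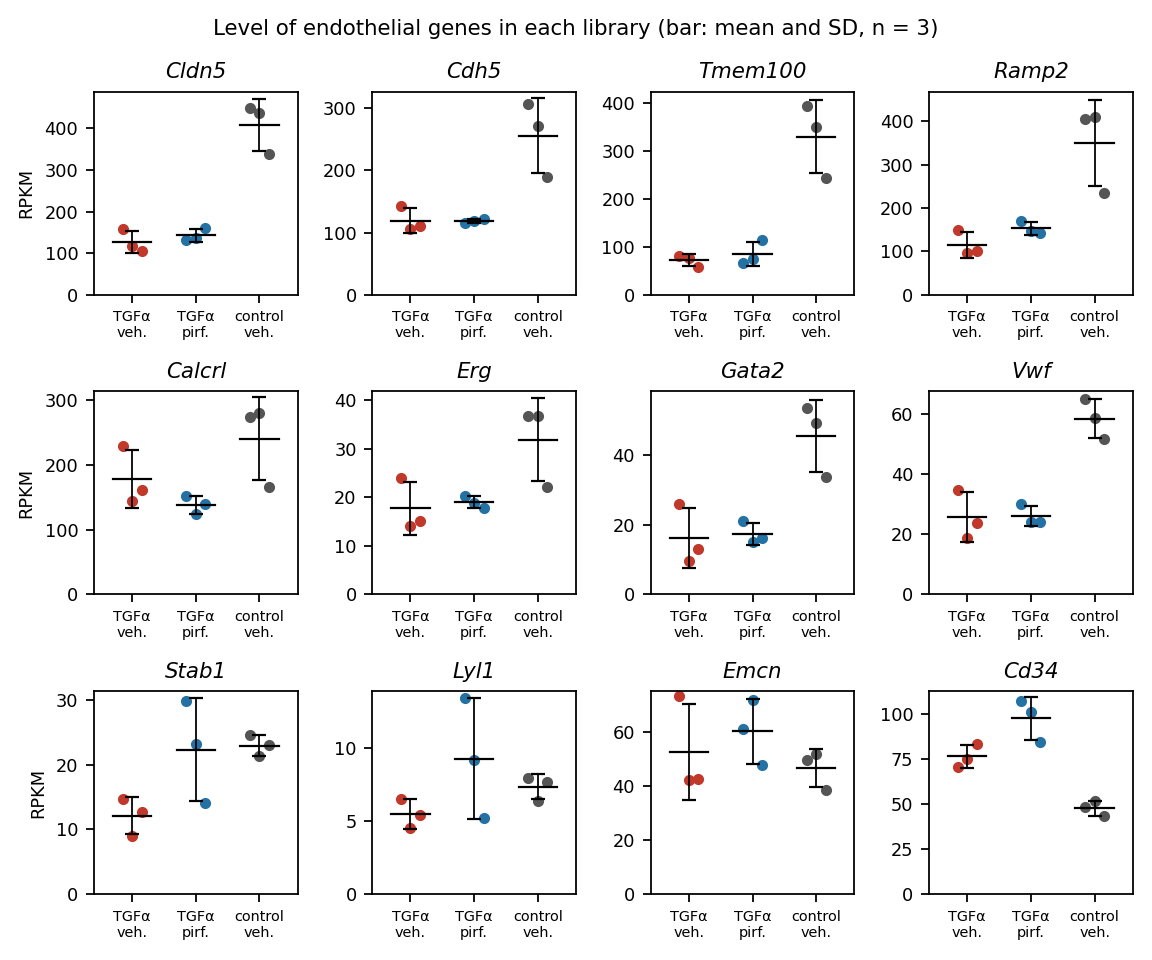
RPKM of 12 endothelial genes in TGFα vehicle, TGFα pirfenidone and control vehicle lungs, each dot 1 library with replicates 1 to 3 from left to right, with the mean and SD (n = 3 per group). All axes start at 0. Cldn5, Cdh5, Tmem100, Ramp2, Gata2 and Vwf lie lower in every TGFα library than in every control library, Cd34 lies higher, and Emcn overlaps.

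Cldn5, Robo4, Cd34 and Emcn are shown with the bases before the outermost start of the gene, from RefSeq on GRCm38.p6, since 2 of them fell clearly and 2 did not. The stretch is 250 bases for Cldn5 and Cd34, 180 for Robo4 and 234 for Emcn. All 4 lie on the plus strand, and capitals mark GGAAG, a motif form bound by ETS factors, or its reverse complement CTTCC. The shorter core GGAA was not marked or counted.
Cldn5, chr16:18776597-18776846: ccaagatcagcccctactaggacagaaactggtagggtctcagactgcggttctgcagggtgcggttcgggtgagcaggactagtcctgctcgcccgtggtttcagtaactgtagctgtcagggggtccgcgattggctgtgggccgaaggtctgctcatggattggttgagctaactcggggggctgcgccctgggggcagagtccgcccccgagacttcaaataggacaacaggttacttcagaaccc
Robo4, chr9:37401722-37401901: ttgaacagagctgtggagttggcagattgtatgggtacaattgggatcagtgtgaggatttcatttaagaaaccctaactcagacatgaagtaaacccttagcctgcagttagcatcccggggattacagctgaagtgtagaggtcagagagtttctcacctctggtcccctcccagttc
Cd34, chr1:194938571-194938820: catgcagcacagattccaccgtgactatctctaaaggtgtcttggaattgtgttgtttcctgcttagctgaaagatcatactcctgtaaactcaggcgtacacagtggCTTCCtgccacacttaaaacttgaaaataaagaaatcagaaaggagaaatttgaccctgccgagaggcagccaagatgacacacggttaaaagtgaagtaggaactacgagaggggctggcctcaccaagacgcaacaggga
Emcn, chr3:137340828-137341061: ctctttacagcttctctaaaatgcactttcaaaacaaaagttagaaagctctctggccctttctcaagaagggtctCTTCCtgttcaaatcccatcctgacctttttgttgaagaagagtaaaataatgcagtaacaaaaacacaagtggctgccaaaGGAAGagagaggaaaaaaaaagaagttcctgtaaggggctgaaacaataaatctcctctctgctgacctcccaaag
GGAAG or CTTCC occurred 0 times in these stretches of Cldn5 and Robo4, 1 time in that of Cd34 and 2 times in that of Emcn. These 4 genes do not stand for the rest. In such stretches, other members called lower held 4 (Egfl7), 3 (Ushbp1, Stab1), 2 (She), 1 (Rasip1, Clec14a, Rasgrp3) or 0 (Procr, Tal1, Gata2, Erg). Members not called held 2 (Lyl1, Myct1) or 0 (Calcrl). For the motif counts, windows of 250 bases before each transcript start in RefSeq were matched for 18 of the 34 genes, 25 windows in all, some of which reach into the gene. The Robo4 window runs on for 70 bases past the stretch shown, and with them it held GGAAG or CTTCC 2 times. GGAAG, searched on both strands, stood in 18 of the 25 windows (72%), beside 64.1% of 32851 mouse windows of the same length. The E-box CANNTG, the motif form bound by Tal1 and Lyl1, stood in 52% of member windows and 66.2% of all windows. GATA, the core bound by Gata2, stood in 44% of member windows and 53.6% of all windows, also counting both strands.

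Among the 8 receptors and signalling adaptors, 6 were lower in TGFα vehicle lungs than in control lungs and 2 did not pass, with a median log2 fold change of -0.96. Tmem100, a membrane protein induced by BMP9 and ALK1 signalling in endothelium, had 81.7, 75.5 and 57.97 RPKM in TGFα vehicle lungs, against 393, 350.4 and 244 RPKM in control lungs. The groups were far apart, and the log2 fold change of -2.17 ± 0.24 was the lowest of all members (limma adjusted p = 0.00166). S1pr1, the receptor for sphingosine 1-phosphate, which lymphocytes also use, averaged 69.5 ± 20.1 RPKM in TGFα vehicle lungs and 203 ± 53.9 RPKM in control lungs (log2 fold change -1.54 ± 0.23, limma adjusted p = 0.00406). The Ras and Rap effector Rasip1 and the Ras exchange factor Rasgrp3 fell as well, with log2 fold changes of -1.04 and -0.86. So did the SH2-domain adaptor She, at -0.89 ± 0.23 (limma adjusted p = 0.0245). That call was lost without control replicate 1 (0.0869), control replicate 2 (0.0761), TGFα vehicle replicate 2 (0.0948) or TGFα vehicle replicate 3 (0.0934). Myct1 had 18.5, 12.6 and 13.7 RPKM in TGFα vehicle lungs, against 23.6, 23.6 and 15.03 RPKM in control lungs. Control replicate 3 lay within the TGFα vehicle range, so the groups overlapped. The log2 fold change was -0.44 ± 0.19 (limma adjusted p = 0.123), and without control replicate 3 it was -0.65 (limma adjusted p = 0.0191).

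Ramp2 and Calcrl, whose proteins together form the main adrenomedullin receptor, moved by different amounts. Ramp2, the accessory subunit, had 149.98, 96.3 and 99.8 RPKM in TGFα vehicle lungs, against 405, 411 and 235 RPKM in control lungs. The groups did not overlap, and the log2 fold change was -1.58 ± 0.24 (limma adjusted p = 0.00406). Calcrl, the seven-pass receptor subunit, had 229, 143 and 161 RPKM in TGFα vehicle lungs, against 274, 279.7 and 166 RPKM in control lungs. Its groups overlapped through TGFα vehicle replicate 1 and control replicate 3, and the log2 fold change was -0.42 ± 0.23 (limma adjusted p = 0.219). Without control replicate 3 it was -0.66 (limma adjusted p = 0.0385). In GENCODE vM21, Ramp2 shares 1103 exon bases with Vps25 on the same strand, and Vps25 had at most 31.9 RPKM in any library. The length recovered from the Ramp2 values was 872 bases, so another gene model lay behind them. How reads shared with Vps25 were counted is not known.

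The ratio of Ramp2 to Calcrl RPKM within a library separated all 3 groups. It was 0.655, 0.672 and 0.618 in TGFα vehicle lungs, 1.11, 1.19 and 1.02 in TGFα pirfenidone lungs and 1.48, 1.47 and 1.41 in control lungs. No 2 groups overlapped, and libraries of 1 group differed little even where their levels did, as in control replicate 3. The exact two-sided permutation p was 0.1 for each of the 3 pairs of groups, the smallest that 3 libraries against 3 allow. This pair of genes and the other 3 ratios plotted with it were chosen after their values were seen. Cd34 over Cdh5 averaged 0.657 ± 0.140 in TGFα vehicle lungs, 0.826 ± 0.122 in TGFα pirfenidone lungs and 0.193 ± 0.0361 in control lungs.

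**Figure D3:**
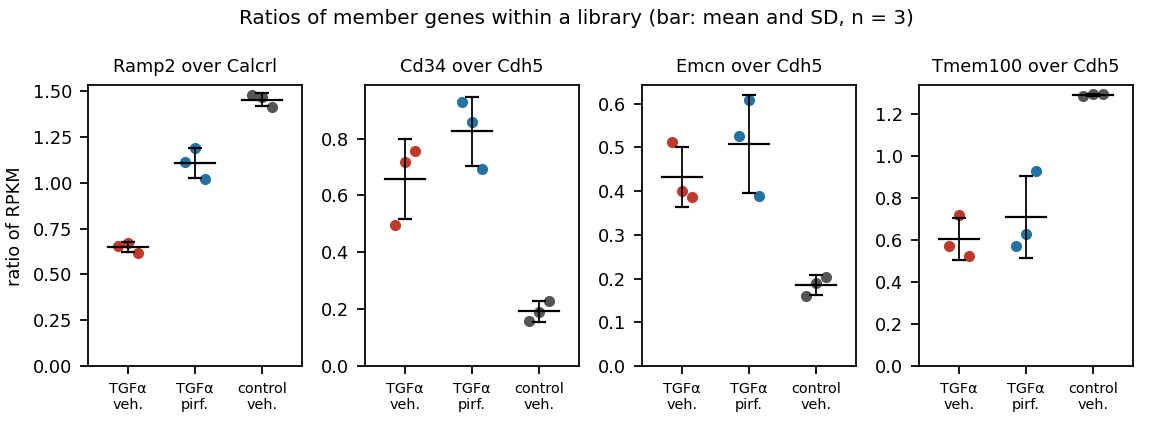
Ratio of RPKM between pairs of endothelial genes within each library, for Ramp2 over Calcrl, Cd34 over Cdh5, Emcn over Cdh5 and Tmem100 over Cdh5, with TGFα vehicle, TGFα pirfenidone and control vehicle libraries as dots and the mean and SD of 3 libraries as bars. The axes start at 0. Every ratio separates both TGFα groups from the control libraries, and Ramp2 over Calcrl also separates TGFα pirfenidone (mean 1.11) from TGFα vehicle (mean 0.648).

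All 5 genes for proteins that meet the blood or are secreted were lower in TGFα vehicle lungs than in control lungs, with a median log2 fold change of -0.93. Procr, the endothelial receptor for protein C, had 10.6, 9.41 and 11.03 RPKM in TGFα vehicle lungs, against 19.2, 22.04 and 17.8 RPKM in control lungs. All 3 control libraries were higher, and the log2 fold change was -0.86 ± 0.12 (limma adjusted p = 0.00288). Egfl7, a secreted matrix protein whose gene hosts miR-126, had 135, 94.002 and 88.95 RPKM in TGFα vehicle lungs, against 261, 228 and 192 RPKM in control lungs. Again the groups did not overlap, with a log2 fold change of -1.11 ± 0.17 (limma adjusted p = 0.00388). Vwf, the platelet-tethering factor that platelets also store, averaged 25.7 ± 8.20 RPKM in TGFα vehicle lungs and 58.4 ± 6.59 RPKM in control lungs (log2 fold change -1.19 ± 0.20, limma adjusted p = 0.00571). Thbd, thrombomodulin, the partner of Procr in protein C activation, had a log2 fold change of -0.93 ± 0.23 (limma adjusted p = 0.0207). Its adjusted p was 0.0747 without control replicate 1, 0.0762 without control replicate 2, 0.0828 without TGFα vehicle replicate 2 and 0.0794 without TGFα vehicle replicate 3, by limma.

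Stab1, a scavenger receptor of sinusoidal endothelium and of macrophages, had 14.7, 9.001 and 12.7 RPKM in TGFα vehicle lungs, 29.8, 23.1 and 14.03 RPKM in TGFα pirfenidone lungs and 24.5, 21.3 and 22.99 RPKM in control lungs. The TGFα vehicle libraries were all below the controls, while 2 of the pirfenidone libraries were within or above the control range. Its log2 fold change in TGFα vehicle against control lungs was -0.89 ± 0.25 (limma adjusted p = 0.0364). The adjusted p was 0.106, 0.0827 and 0.0645 without control replicates 1, 2 and 3, and 0.131 and 0.0899 without TGFα vehicle replicates 2 and 3, by limma. Without TGFα pirfenidone replicate 2 it was 0.0533. None of 10 macrophage and monocyte markers was called between TGFα vehicle and control lungs by limma (0 at an unadjusted p under 0.05). Between TGFα pirfenidone and TGFα vehicle lungs 0 were called, with 1 at an unadjusted p under 0.05, beside 20.7% of all tested genes. Against control lungs, 2 of these markers were called higher and 0 lower in TGFα pirfenidone lungs, with 4 at an unadjusted p under 0.05. Over all tested genes, 10.6% were called higher there. The summed level of the 10 markers was 373 to 508 RPKM in TGFα vehicle lungs, 420 to 888 RPKM in TGFα pirfenidone lungs and 234 to 627 RPKM in control lungs. Its part in the level of Stab1 was not tested.

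Of the 9 transcription factors and cofactors, 8 were lower in TGFα vehicle lungs than in control lungs and 1 did not pass, with a median log2 fold change of -0.94. Bcl6b, a zinc finger repressor of endothelium, had 14.6, 10.8 and 10.5 RPKM in TGFα vehicle lungs, against 25.5, 23.5 and 21.9 RPKM in control lungs. Every control library was above the TGFα vehicle libraries, and the log2 fold change was -0.94 ± 0.14 (limma adjusted p = 0.00370). Tal1, a basic helix-loop-helix factor of blood and vessel progenitors, had 4.03, 2.46 and 3.52 RPKM in TGFα vehicle lungs, against 10.6, 7.79 and 6.88 RPKM in control lungs. The groups did not overlap, at a log2 fold change of -1.12 ± 0.17 (limma adjusted p = 0.00412). Lyl1, the close relative of Tal1 that myeloid cells also use, had 6.53, 4.52 and 5.41 RPKM in TGFα vehicle lungs, against 7.99, 6.39 and 7.71 RPKM in control lungs. Here TGFα vehicle replicate 1 reached the control range, and the log2 fold change was -0.37 ± 0.27 (limma adjusted p = 0.344).

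The 3 ETS factors were all called lower but differed in size. Fli1 had a log2 fold change of -1.02 ± 0.16 in TGFα vehicle against control lungs (limma adjusted p = 0.00447), with 9.99 ± 1.62 RPKM in TGFα vehicle lungs and 21.3 ± 3.20 RPKM in control lungs. Erg, the ETS factor most restricted to endothelium, had 24.01, 14.03 and 15.1 RPKM in TGFα vehicle lungs, against 36.8, 36.7 and 22.04 RPKM in control lungs. Control replicate 3 fell below TGFα vehicle replicate 1, so the groups overlapped. The log2 fold change was -0.81 ± 0.23 (limma adjusted p = 0.0375), and leaving out any 1 of 6 libraries ended the call. Fitting only the TGFα vehicle and control libraries also ended it. The limma adjusted p of Erg was 0.121 and 0.124 without control replicates 1 and 2, 0.136 and 0.129 without TGFα vehicle replicates 2 and 3, and 0.0541 and 0.0564 without TGFα pirfenidone replicates 1 and 2. Ets1, which lymphocytes also use at high levels, had 53.8, 47.4 and 48.3 RPKM in TGFα vehicle lungs, against 77.3, 78.6 and 58.9 RPKM in control lungs. Its groups did not overlap, and its log2 fold change of -0.50 ± 0.12 was the smallest fall among the called members (limma adjusted p = 0.0167).

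Ldb2, a cofactor that binds LIM-domain proteins, had the second smallest called fall. It had 17.8, 17.5 and 16.2 RPKM in TGFα vehicle lungs, against 32.9, 28.4 and 20.1 RPKM in control lungs. The groups did not overlap, at a log2 fold change of -0.60 ± 0.16 (limma adjusted p = 0.0253). The calls of Ldb2 and Ets1 were each lost without control replicate 1 (0.0767 and 0.0633), control replicate 2 (0.0875 and 0.0651), TGFα vehicle replicate 2 (0.0765 and 0.0682) or TGFα vehicle replicate 3 (0.0914 and 0.0680), all limma adjusted p. Epas1, the hypoxia-inducible factor HIF-2α, was the most abundant member and averaged 236 ± 74.6 RPKM in TGFα vehicle lungs and 577 ± 133 RPKM in control lungs (log2 fold change -1.30 ± 0.24, limma adjusted p = 0.00825). Alveolar epithelium also expresses Epas1. Gata2, a zinc finger factor that mast cells and blood progenitors share, averaged 16.1 ± 8.56 RPKM in TGFα vehicle lungs and 45.4 ± 10.4 RPKM in control lungs (log2 fold change -1.52 ± 0.32, limma adjusted p = 0.0123). Without TGFα vehicle replicate 3 its limma adjusted p was 0.0532.

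Ushbp1, named as a partner of the Usher protein harmonin, had 20.5, 12.3 and 13.9 RPKM in TGFα vehicle lungs, against 37.8, 35.8 and 26.8 RPKM in control lungs. The groups did not overlap, at a log2 fold change of -1.07 ± 0.19 (limma adjusted p = 0.00642).

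To describe the spread between members, the interval of each gene was set beside the members' own median. These intervals do not measure the error of a difference between members, since libraries of 1 group shifted nearly all members together. Of the 33 unadjusted 95% intervals for TGFα vehicle against control, 23 held the members' own median of -0.96. The intervals of Tmem100, Cldn5, Ramp2 and S1pr1 lay wholly below it, and those of Ldb2, Ets1, Myct1, Calcrl, Emcn and Cd34 lay wholly above it. The 17 members with a mean of at least 39.4 RPKM over the 9 libraries had a median log2 fold change of -1.04 and the other 16 had one of -0.89. The 16 members that other cell types also express to a known degree had a median of -0.91, with 13 lower and 1 higher. The 17 not listed as such, Esam among them although platelets also carry it, had a median of -0.98, with 14 lower and 0 higher.

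Libraries of 1 group differed across nearly all members at once. TGFα vehicle replicate 1 was the highest of its group in 31 of 33 members, and control replicate 3 the lowest of its group in 30 of 33. The summed level of the 33 genes was 2250, 1529 and 1588 RPKM in TGFα vehicle lungs, 1939, 1840 and 1896 RPKM in TGFα pirfenidone lungs and 4493, 4282 and 2962 RPKM in control lungs. All 6 TGFα libraries thus lay below all 3 control libraries. Without both control replicate 3 and TGFα vehicle replicate 1, the median log2 fold change of the members in TGFα vehicle against control lungs was -1.29, with 29 members called lower and 1 higher.

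**Figure D4:**
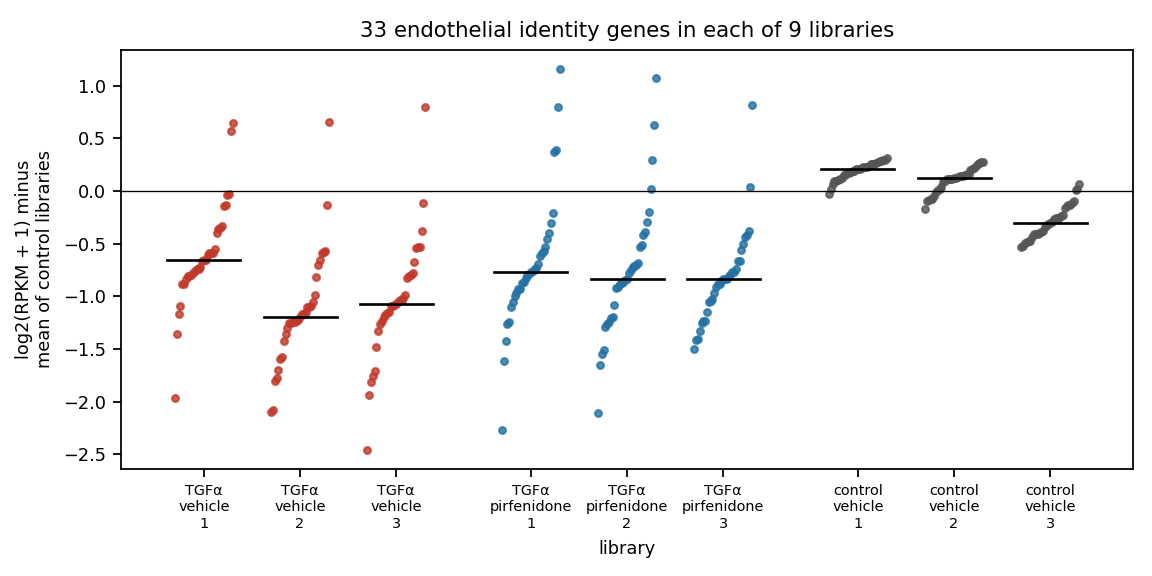
Each dot is 1 of the 33 endothelial genes in 1 of the 9 libraries, as log2(RPKM + 1) minus the mean of the 3 control libraries for that gene, ranked within the library, and black bars mark the median. The medians are -0.66, -1.20 and -1.07 in TGFα vehicle libraries, -0.77, -0.84 and -0.84 in TGFα pirfenidone libraries and 0.21, 0.12 and -0.31 in control libraries. Cd34 is the highest dot of each TGFα library except TGFα vehicle replicate 1, where Emcn is highest.

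Whether pirfenidone moved these genes was read from TGFα lungs given pirfenidone against TGFα lungs given vehicle. None of the 33 passed the threshold in limma, beside 0.549% of all tested genes called lower and 0.152% called higher. Limma-voom on recovered reads also called 0, and 5 members had an unadjusted p under 0.05 in limma, beside 20.7% of all tested genes. The median log2 fold change was 0.19, with 28 members above 0 and 5 below, beside a median of 0.03 over all tested genes. That median was 0.06 without TGFα vehicle replicate 2, 0.09 without TGFα vehicle replicate 3 and 0.31 without TGFα vehicle replicate 1. Over the 17 other settings of the fit, 21 of the 33 members kept 1 sign and 12 did not, Cdh5, Erg, Vwf and Tmem100 among them. The intervals of single members were wide, with a median of 0.43 on either side of the estimate.

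The 4 members with the smallest p in this comparison were Stab1, Cd34, Bcl6b and Fli1. For Stab1, with its library values given above, the log2 fold change was 0.79 ± 0.25 with an interval of 0.22 to 1.37 (limma adjusted p = 0.143). Cd34 had 107, 101 and 84.5 RPKM in TGFα pirfenidone lungs, against 70.96, 75.4 and 83.5 RPKM in TGFα vehicle lungs. The groups did not overlap, though replicate 3 of each was close to the other, and the log2 fold change was 0.34 ± 0.11 (limma adjusted p = 0.151). Bcl6b had 13.8, 17.7 and 17.1 RPKM in TGFα pirfenidone lungs, against 14.6, 10.8 and 10.5 RPKM in TGFα vehicle lungs. Pirfenidone replicate 1 was below TGFα vehicle replicate 1, and the log2 fold change was 0.41 ± 0.14 (limma adjusted p = 0.154). Fli1 had 15.8, 14.3 and 10.99 RPKM in TGFα pirfenidone lungs, against 11.8, 8.68 and 9.48 RPKM in TGFα vehicle lungs. Only pirfenidone replicate 3 overlapped the vehicle libraries, and the log2 fold change was 0.42 ± 0.16 (limma adjusted p = 0.197). Lyl1 had 13.5, 9.20 and 5.23 RPKM in TGFα pirfenidone lungs, with replicate 3 inside the vehicle range given above (log2 fold change 0.59 ± 0.27, limma adjusted p = 0.252).

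**Figure D5:**
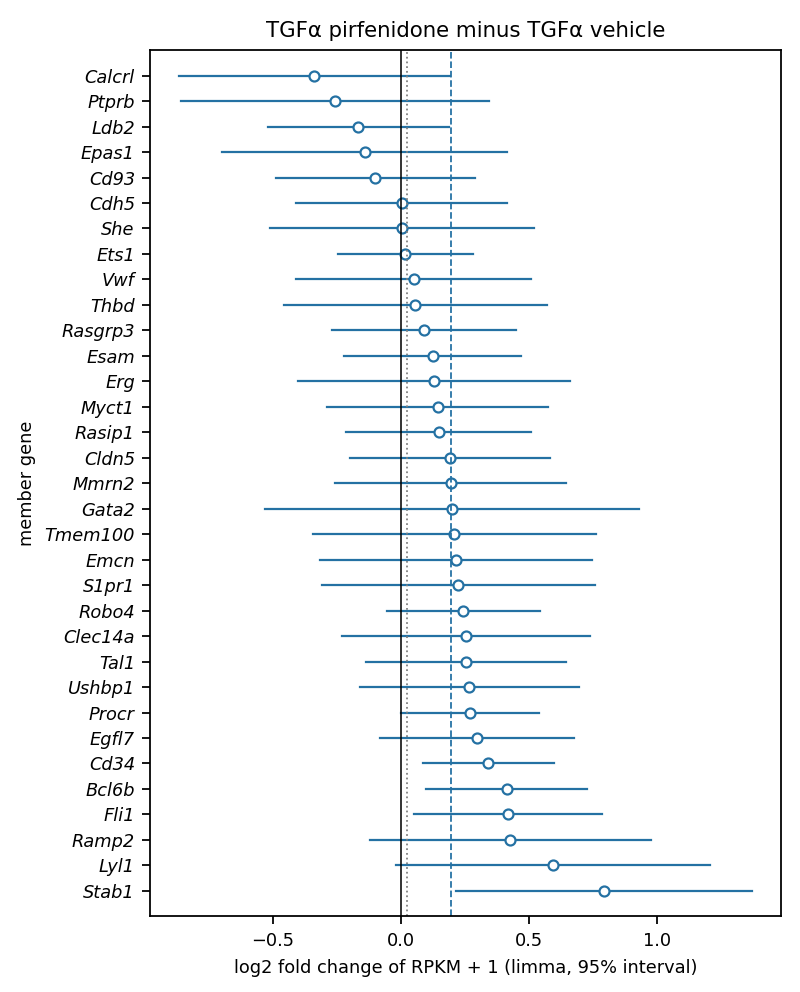
Log2 fold change of RPKM + 1 for the 33 endothelial genes in TGFα pirfenidone lungs minus TGFα vehicle lungs, with unadjusted 95% intervals from limma. No gene passed the adjusted threshold, so all points are open. The dashed line is the median of the members (0.19), the dotted line that of all tested genes (0.03), and Stab1 and Lyl1 have the highest values.

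These counts depended on TGFα pirfenidone replicate 3. Without it, 4 members were called higher, Cd34, Fli1, Lyl1 and Stab1, beside 7.62% of all tested genes. Their log2 fold changes were then 0.44, 0.56, 0.92 and 1.08. Without both that library and TGFα vehicle replicate 1, an alternative added after seeing the data, 8 members were called higher, beside 9.80% of all tested genes. They were the same 4 with Emcn, Egfl7, Mmrn2 and Bcl6b. With library weights in limma, 14 members were called higher, beside 19.2% of all tested genes. No member was called lower in any of these 3 settings, beside 7.70%, 11.7% and 18.9% of all tested genes.

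The members with the largest falls in TGFα vehicle lungs were also low in TGFα pirfenidone lungs. Cldn5 had 131, 138 and 160.3 RPKM, Tmem100 65.9, 74.2 and 114 RPKM and Ramp2 169, 147 and 142 RPKM in TGFα pirfenidone lungs, all below every control library given above. Their log2 fold changes in TGFα pirfenidone against TGFα vehicle lungs were 0.19 (interval -0.20 to 0.58), 0.21 (interval -0.34 to 0.76) and 0.43 (interval -0.12 to 0.98). Cdh5 averaged 119 ± 3.26 RPKM in TGFα pirfenidone lungs and 119 ± 20.4 RPKM in TGFα vehicle lungs, with an interval of -0.41 to 0.41 around a log2 fold change of 0.00. Calcrl was the lowest in this comparison, at 152, 124 and 139 RPKM in TGFα pirfenidone lungs (log2 fold change -0.34 ± 0.23, limma adjusted p = 0.437), with libraries that overlapped those of vehicle.

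Set against control lungs, TGFα lungs on pirfenidone had 24 of the 33 endothelial genes called lower and 1, Cd34, called higher. Over all tested genes, 7.74% were called lower and 10.6% higher. Those shares are 1473 genes higher and 1072 lower, while median-of-ratios scaling gave 1156 higher and 1356 lower. The median log2 fold change of the members was -0.81, with an SD of 0.56 between members, beside 0.05 over all tested genes. This comparison shares its control libraries with that of TGFα vehicle, so both sets of values are given side by side and not as separate evidence. Tmem100 was at -1.96 with pirfenidone and -2.17 with vehicle, and Cldn5 at -1.50 with pirfenidone and -1.69 with vehicle. Epas1 was at -1.44 with pirfenidone and -1.30 with vehicle, and Cdh5 at -1.07 with pirfenidone and -1.08 with vehicle. The gaps were widest for Stab1, at -0.10 with pirfenidone and -0.89 with vehicle, and for Lyl1, at 0.22 with pirfenidone and -0.37 with vehicle. Next came Ramp2, at -1.15 with pirfenidone and -1.58 with vehicle, and Fli1, at -0.61 with pirfenidone and -1.02 with vehicle.

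The 8 members not called in TGFα pirfenidone against control lungs were Calcrl, Clec14a, Erg, Emcn, Lyl1, Mmrn2, Myct1 and Stab1. The limma adjusted p was 0.0536 for Calcrl, 0.0509 for Clec14a and 0.0746 for Erg, and the libraries of both groups did not overlap for these 3. The libraries did not overlap in 28 members that were lower and in 1 that was higher, beside 14.8% and 22.5% of all tested genes. The count of 24 fell to 13 without control replicate 1, to 11 without control replicate 2 and to 15 without TGFα pirfenidone replicate 2. It reached 28 without control replicate 3 or without TGFα vehicle replicate 1. Calls lower over all tested genes went from 1072 to 436, 387, 445, 1320 and 1233 in the same settings, in that order. Under all 17 other settings of the fit, 12 calls held, those of Cdh5, Cldn5, Esam, Cd34, Cd93, Robo4, S1pr1, Tal1, Vwf, Rasip1, Epas1 and Tmem100.

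Markers of other cells that share some of the 33 genes were compared as well. Their counts stand beside 11.2% of all tested genes called lower and 12.0% higher in TGFα vehicle against control lungs. All 5 platelet and megakaryocyte markers that could be tested, of 7 listed, were lower in TGFα vehicle lungs than in control lungs. Ppbp, a platelet chemokine, averaged 5.09 ± 1.99 RPKM in TGFα vehicle lungs and 16.8 ± 2.02 RPKM in control lungs (log2 fold change -1.60 ± 0.25, limma adjusted p = 0.00438). The summed level of this list was 13.2 to 22.6 RPKM in TGFα vehicle lungs and 42.3 to 107.5 RPKM in control lungs, with Gp6 and Treml1 under 1 RPKM in every library. Of 5 tested mast cell and basophil markers, 2 were lower, Kit and Hdc, both also used outside mast cells, and the summed level of the 7 in the table was 46.2 to 52.9 RPKM in TGFα vehicle lungs and 90.9 to 116 RPKM in control lungs. Ms4a2 and Fcer1a, which define mast cells and basophils, were under 1 RPKM in every library. Of 10 general leukocyte markers, 3 were lower, and their summed level was 438 to 485 RPKM in TGFα vehicle lungs and 468 to 1046 RPKM in control lungs. All 6 B cell markers were lower in TGFα vehicle lungs than in control lungs, with a median log2 fold change of -1.28. The summed level of the B cell list was 28.2 to 36.3 RPKM in TGFα vehicle lungs, 51.2 to 79.2 RPKM in TGFα pirfenidone lungs and 69.2 to 100.3 RPKM in control lungs. Between TGFα pirfenidone and TGFα vehicle lungs none of the 6 passed in limma. An unadjusted p under 0.05 was found for 5, beside 20.7% of all tested genes. All 6 had log2 fold changes above 0, with a median of 0.74. Of 6 mesothelial markers, 4 were lower and 1 higher in TGFα vehicle lungs than in control lungs, and of 10 epithelial markers 2 were lower and 2 higher. The part of these cells in the levels of S1pr1, Vwf, Esam, Gata2, Tal1, Fli1, Ets1 and the other shared members was not tested.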

How the data were processed

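The deposited table holds RPKM values made by the authors, with no unit in its header; the unit was settled from the values, of which 100% were whole numbers of reads within 0.02 reads once divided by 1 step per gene and library (99.999% within 0.0001). Per the submitters' processing notes, TopHat, bcl2fastq, CASAVA 1.8, DESeq and build mm10 were used, with no role named, and the sources used here do not give annotation, counting or strand. Genes above 1 RPKM in 3 or more libraries were fitted as log2(RPKM + 1) with limma-trend 3.58.1 in R 4.3.3, in 1 model of group over all 9 libraries (6 residual and 2.67 prior degrees of freedom), two-sided, Benjamini-Hochberg over all tested genes, threshold 0.05. The pseudocount understates folds of low genes. Replicate numbers were not taken as pairs in the main fit. Correlations of deviations between same-numbered libraries ran from -0.14 to 0.46, and 3 of 9 exceeded 0.1. TGFα vehicle replicate 1 and TGFα pirfenidone replicate 2, with unlike numbers, reached 0.47. Whether same-numbered mice were matched is not known. The scripts were tested on simulated data with known changes.

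The members, lists and tests were chosen with earlier results of these data known. Library values are given for the 2 members of smallest p per role in TGFα vehicle against control, those not called there, the 2 largest and 2 smallest falls, and the 4 of smallest p between TGFα groups. Further members were added after their values were seen. At most 2 genes per other list were taken, by p. Positions and promoters are those of RefSeq on GRCm38.p6, and exon overlaps are from GENCODE vM21. Alternatives were another pseudocount, filter, scaling, test, sample set, library weights, a replicate block and each library left out. Python 3.11.15 was used for summaries.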

Additional observations from a re-analysis of the deposited data

How the results depend on the processing

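No called value changed sign, while values that were not called did, those of Emcn in TGFα vehicle against control, of 12 members in TGFα pirfenidone against TGFα vehicle and of Lyl1 and Stab1 in TGFα pirfenidone against control. In TGFα vehicle against control, 3222 genes were called, 8034 with library weights, 1306 to 3952 with 1 library left out and 4893 without TGFα vehicle replicate 1 and TGFα pirfenidone replicate 3 (added after seeing the data). The members' median was -1.20 with library weights, -1.14 to -0.88 with 1 library left out and -1.29 without control replicate 3 and TGFα vehicle replicate 1 (also added). In TGFα pirfenidone against TGFα vehicle, 97 genes were called, 63 with no filter, 11 with only both groups fitted, 5274 with library weights, 21 with the replicate block, 4 to 2111 with 1 library left out, and 2941 and 17 under the 2 added settings. Members called higher there were 0, 14 with library weights, 0 to 4 with 1 library left out and 8 without TGFα vehicle replicate 1 and TGFα pirfenidone replicate 3. In TGFα pirfenidone against control, 2545 genes were called, 5921 with library weights, 1101 to 3041 with 1 library left out and 3595 without control replicate 3 and TGFα vehicle replicate 1. Members called lower were 24, and 11 to 28 with 1 library left out, and members called higher were 2 (Cd34 and Emcn) without TGFα vehicle replicate 1 and TGFα pirfenidone replicate 3. Median-of-ratios scaling called 1156 genes higher and 1356 lower there, against 1473 and 1072, and 26 members lower. The replicate block gave 28 and 26 members lower against control in TGFα vehicle and TGFα pirfenidone lungs, adding Mmrn2 in the first and Calcrl, Clec14a and Erg in the second and losing Bcl6b in the second. Which of these moves has which cause was not tested. With 3 mice a group, a permutation of 1 value cannot go below 0.1.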

Other observations

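Of 34 further pan-endothelial genes, 21 were lower and 0 higher by limma in TGFα vehicle lungs than in control lungs, with a median log2 fold change of -0.75, beside 11.2% of all tested genes called lower. Eng, the endoglin co-receptor for BMP9, averaged 39.1 ± 5.01 RPKM in TGFα vehicle lungs, 46.1 ± 1.54 RPKM in TGFα pirfenidone lungs and 151 ± 40.1 RPKM in control lungs (SD, n = 3 each). Mcam, a cell adhesion molecule of endothelium and pericytes, averaged 55.9 ± 3.45 RPKM in TGFα vehicle lungs, 52.3 ± 3.69 RPKM in TGFα pirfenidone lungs and 95.7 ± 10.6 RPKM in control lungs. The same list had 22 genes lower in TGFα pirfenidone lungs than in control lungs, beside 7.74% of all tested genes. Between TGFα pirfenidone and TGFα vehicle lungs 0 of the 34 were called by limma or had an unadjusted p under 0.05. Among all tested genes, 20.7% had an unadjusted p under 0.05 there.

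Of 6 aerocyte markers 4 were lower in TGFα vehicle than in control lungs, among them Ednrb, the endothelin receptor B, at 4.71, 3.77 and 3.58 RPKM in TGFα vehicle lungs and 19.99, 19.3 and 11.3 RPKM in control lungs (log2 fold change -1.80 ± 0.23, limma adjusted p = 0.00240). Of 6 general capillary markers 3 were lower and 1 was higher. Both lists stand beside 11.2% of all tested genes called lower and 12.0% higher in the same comparison. Plvap, which forms the diaphragms of fenestrae and caveolae, had 48.9, 74.2 and 71.1 RPKM in TGFα vehicle lungs and 349, 315 and 226 RPKM in control lungs (log2 fold change -2.18 ± 0.25, limma adjusted p = 0.00173). Lpl, lipoprotein lipase, which adipocytes and macrophages also make, had 131, 92.3 and 107 RPKM in TGFα vehicle lungs and 49.3, 52.6 and 85.6 RPKM in control lungs (log2 fold change 0.84 ± 0.24, limma adjusted p = 0.0361). Plvap and Ednrb lay lower in every TGFα vehicle library than in every control library, and Lpl lay higher.

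Of 6 arterial markers 3 were lower and 0 higher in TGFα vehicle than in control lungs, with a median log2 fold change of -0.68. Of 6 venous markers 4 were lower and 0 higher, with a median of -1.01. Each of these lists held 1 gene with a log2 fold change above 0 that did not pass. Among all tested genes, 11.2% were called lower and 12.0% higher in this comparison. Prss23, a secreted protease of venous endothelium, had 13.6, 13.7 and 12.7 RPKM in TGFα vehicle lungs, 19.96, 21.9 and 16.4 RPKM in TGFα pirfenidone lungs and 39.03, 38.6 and 40.2 RPKM in control lungs, and the 3 groups did not overlap. Its log2 fold change was -1.49 ± 0.10 in TGFα vehicle against control lungs (limma adjusted p = 0.000330) and 0.50 ± 0.10 in TGFα pirfenidone against TGFα vehicle lungs (limma adjusted p = 0.0664). Of 4 tested lymphatic markers 2 were lower, Lyve1 and Flt4. The other 2 had log2 fold changes above 0 that did not pass, and the median of the 4 was -0.30. Lyve1 had 28.1, 26.7 and 20.5 RPKM in TGFα vehicle lungs and 114, 119 and 88.9 RPKM in control lungs. Prox1, the defining factor of lymphatic endothelium, had at most 1.14 RPKM in any library and was not tested.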
